A study of Mus musculus with 2 samples.

Results

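The G1 cyclins, their kinases and the inhibitors of cyclin-dependent kinases were followed here through the cell classes of the mouse striatum after stroke. The set is 9 genes out of the 31053 in the deposited tables, taken by symbol: the D cyclins Ccnd1, Ccnd2 and Ccnd3, the kinases Cdk4 and Cdk6, the Cip/Kip inhibitors Cdkn1a, Cdkn1b and Cdkn1c, and the INK4 inhibitor Cdkn2c. All 9 were found. Each had at least 20 UMIs over both libraries in every class compared below, mural-like cells excepted. UMIs (unique molecular identifiers) each stand for 1 captured RNA molecule. In mural-like cells Cdkn1b and Cdkn2c had fewer than 20.

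The cells came from male C57/BL6 mice that had a 60-minute occlusion of the middle cerebral artery at postnatal day 10 and 2 weeks of reperfusion. The lateral striatum of the occluded side (ipsilateral) and of the opposite side (contralateral) was dissociated, and cells carrying A2B5, O4 or both on their surface were sorted. Each side is 1 library of 3 pooled animals. The contralateral side belongs to the same operated brains, and no sham-operated or unoperated mice were analysed here. With 1 library per side there is no replicate check: no test was possible, no p-value is given, and all intervals are 95% intervals that cover counting error only.

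Cells move from G1 into S phase when a D cyclin binds Cdk4 or Cdk6 and the complex phosphorylates the retinoblastoma protein, which releases E2F factors that switch on replication genes. INK4 proteins such as p18, the product of Cdkn2c, bind the kinases directly. Cip/Kip proteins, p21 from Cdkn1a, p27 from Cdkn1b and p57 from Cdkn1c, mainly block the later cyclin complexes and also help assemble those of D cyclins. In the oligodendrocyte lineage, precursors (OPCs) divide and then leave the cycle as they mature, and p27 and p57 are known to take part in that exit.

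Promoter windows are shown for 3 members to which the results below return: Cdk4 and Cdkn1a, higher in ipsilateral OPC-like cells, and Cdkn2c, which followed replication and mitosis genes. They run from 250 bases before to 50 bases after a RefSeq start, 5′ to 3′ on the gene's strand, on GRCm38.p6. Cdkn1a and Cdkn2c each have a second window, chr17:29093519-29093818 and chr4:109665323-109665622, with 0 matches to the motif marked in the printed one. The printed window is the one with matches. Capitals in the Cdk4 window, chr10:127063285-127063584 on the plus strand, mark the E-box CACGTG, which reads the same on both strands.
Cdk4: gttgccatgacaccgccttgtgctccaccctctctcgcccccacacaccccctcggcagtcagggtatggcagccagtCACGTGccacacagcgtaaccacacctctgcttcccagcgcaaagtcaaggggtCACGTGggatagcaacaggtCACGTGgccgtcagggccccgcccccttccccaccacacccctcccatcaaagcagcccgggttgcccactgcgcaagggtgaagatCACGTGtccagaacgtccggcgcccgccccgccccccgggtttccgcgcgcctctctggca
This window held 4 E-boxes. Of 32851 mouse windows of the same length, 7.15% held at least 1 and 0.0244% held at least 4. Capitals in the Cdkn1a window, chr17:29090729-29091028 on the plus strand, mark the p53 decamer, searched on both strands.
Cdkn1a: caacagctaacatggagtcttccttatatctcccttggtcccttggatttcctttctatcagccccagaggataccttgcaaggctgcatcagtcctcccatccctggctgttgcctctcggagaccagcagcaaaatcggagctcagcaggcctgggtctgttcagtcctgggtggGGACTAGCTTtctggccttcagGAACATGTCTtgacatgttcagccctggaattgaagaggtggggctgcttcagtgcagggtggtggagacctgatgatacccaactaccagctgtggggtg
It held 2 decamers, and 8.36% of all windows held at least 1 and 0.359% at least 2. In the Cdkn2c window, chr4:109666707-109667006 on the minus strand, capitals mark the GC box GGGCGG.
Cdkn2c: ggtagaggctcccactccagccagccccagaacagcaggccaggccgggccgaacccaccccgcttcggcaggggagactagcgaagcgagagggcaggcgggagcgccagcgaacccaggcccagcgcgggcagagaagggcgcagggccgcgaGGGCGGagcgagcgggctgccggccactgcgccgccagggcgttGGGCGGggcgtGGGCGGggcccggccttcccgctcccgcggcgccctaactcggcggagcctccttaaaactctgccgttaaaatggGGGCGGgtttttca
It held 4 GC boxes. Counted on both strands, 35.7% of all windows held at least 1 and 5.49% at least 4. The E2F motifs TTTCCCGC, TTTCGCGC, TTTGCCGC and TTTGGCGC, searched on both strands, were in none of the 9 windows found for 6 members, and in 2.26% of all windows. The marked motif was set for each gene separately, and for Cdkn1a and Cdkn2c the window with matches was printed. The shares of all windows allow for neither choice, so they are no test. These matches describe letters only, and nothing follows from them about binding.

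The contralateral library held 2066 barcodes and 36063045 UMIs, the ipsilateral library 2775 barcodes and 54788795 UMIs. After filtering, 1899 and 2404 cells were kept, and the libraries shared 0 barcodes. Clusters were named by marker genes, with "-like" because names rest on RNA alone. The labels call the cells oligodendrocytes, but the 3 oligodendrocyte-lineage classes made up 50.2% of the contralateral and 65.5% of the ipsilateral cells. OPC-like cells numbered 317 contralaterally and 404 ipsilaterally, committed or newly formed oligodendrocyte-like cells 113 and 219, mature oligodendrocyte-like cells 524 and 952, and neuroblast or neural progenitor-like cells 303 and 252. Astrocyte-like cells (115 and 115), endothelial-like cells (181 and 125) and 29 mural-like cells made up the other named classes. Levels are UMIs scaled to the total of a library's class in the usual CPM unit and were not compared between genes.

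The dividing classes differed in their D cyclins. Ccnd1, the cyclin that growth factor signals induce (chromosome 7, 144929931 to 144939925, minus strand), stood at 939 CPM (906 to 972) in contralateral and 993 CPM (968 to 1019) in ipsilateral OPC-like cells. Mural-like cells held 377 and 293 CPM, endothelial-like cells 221 and 152, astrocyte-like cells 74.2 and 83.5, and committed cells 41.2 and 38.4. Neuroblast-like cells held 21.1 and 22.0 CPM, and mature cells were lowest at 2.36 and 3.80. The order of the classes was the same in both libraries, and no 2 neighbours in it had overlapping intervals. In committed contralateral cells 1 cell gave 24.2% of the Ccnd1 UMIs.

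Ccnd2, the D cyclin of neural progenitors (chromosome 6, 127125162 to 127152193, minus strand), was highest in neuroblast-like cells, at 4917 CPM (4855 to 4979) contralaterally and 4812 CPM (4749 to 4875) ipsilaterally. Astrocyte-like cells followed at 887 and 935 CPM, and OPC-like cells held 128 and 132. Committed cells held 19.0 and 10.1 CPM, and mature cells 14.1 and 7.68. Within the neuroblast class, the cluster led by Dlx6os1 and Stmn2, genes of differentiating neuroblasts, held the most Ccnd2 (5721 and 5879 CPM), and the cluster led by mitosis genes the least (4246 and 4192).

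Ccnd3 (chromosome 17, 47505051 to 47599691, plus strand), a D cyclin found in many tissues, varied least of the 3 over the classes. Its level was 171 and 161 CPM in endothelial-like cells, 133 and 165 in OPC-like cells, 90.3 and 100.2 in astrocyte-like cells, 41.2 and 45.0 in neuroblast-like cells, 39.5 and 52.9 in committed cells and 13.3 and 14.8 in mature cells. Mature cells were below every other class in both libraries.

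Summed over the 3 D cyclins, Ccnd1 gave 78.2% of contralateral (76.9 to 79.5) and 77.0% of ipsilateral UMIs (76.0 to 77.9) in OPC-like cells. In neuroblast-like cells Ccnd2 gave 98.7% and 98.6%, and in astrocyte-like cells 84.4% and 83.6%. Committed cells had Ccnd1 at 41.3% and 37.9% and Ccnd3 at 39.7% and 52.2%. These percentages compare classes, since UMIs of different genes need not be captured alike.

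**Figure D1:**
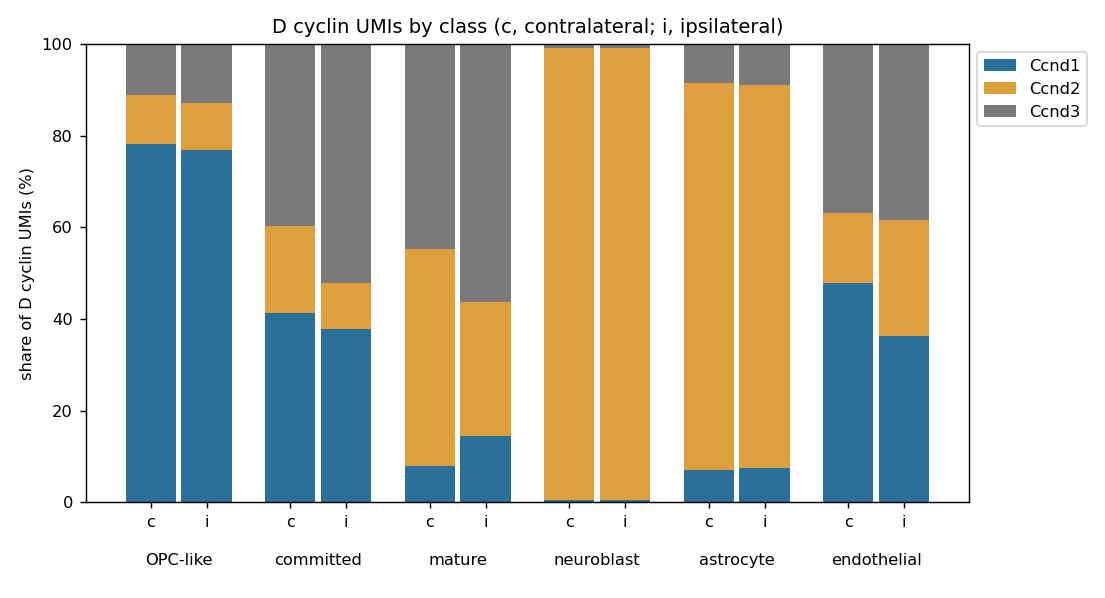
Share of D cyclin UMIs (%) from Ccnd1, Ccnd2 and Ccnd3 in 6 cell classes, contralateral (c) and ipsilateral (i). Ccnd1 fills 78.2% and 77.0% of the OPC-like bars and Ccnd2 98.7% and 98.6% of the neuroblast-like bars.

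The same UMIs were also read as shares of single cells. With each cell thinned to 5000 UMIs, a Ccnd1 UMI was found in 94.0% of contralateral and 93.2% of ipsilateral OPC-like cells (96.8% and 97.8% before thinning). In mature cells the thinned share was 1.15% and 2.06%, at median depths of 27288.5 and 28365.5 UMIs against 10102 and 12510.5 in OPC-like cells. Ccnd2 was found in 99.0% of contralateral neuroblast-like cells and in all 241 ipsilateral ones. Both cyclins were found together in 36.2% and 31.2% of OPC-like cells, and Ccnd2 without Ccnd1 in 0.664% and 1.04%. Of the neuroblast-like cells, 4.39% and 7.88% held both, and no cell of either library held Ccnd1 without Ccnd2. As Ccnd2 was found in nearly all of these cells, that absence was all but fixed in advance. The small share of OPC-like cells with Ccnd2 alone was bounded likewise, as 94.0% and 93.2% of them held Ccnd1.

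Cdk4 (chromosome 10, 127063534 to 127067920, plus strand), the main partner of the D cyclins in many cell types, was highest in neuroblast-like cells at 829 and 882 CPM. Committed cells held 327 CPM contralaterally and 443 ipsilaterally, above OPC-like cells at 241 and 378 in both libraries. Mature cells were lowest, at 62.9 and 72.9 CPM. Cdk6 (chromosome 5, 3341485 to 3531008, plus strand), the sister kinase, stood at 127 and 112 CPM in neuroblast-like cells and 94.3 and 58.9 in astrocyte-like cells. Mural-like cells held 196 and 71.2 CPM, from 28 and 9 UMIs, with intervals that overlapped those of neuroblast-like cells. Cdk6 was 39.2 and 36.8 CPM in OPC-like cells and 4.50 and 1.72 in committed cells, where it rested on 14 and 9 UMIs. Mature cells held 1.01 and 0.475 CPM, from 15 and 13 UMIs. Committed cells were thus above OPC-like cells in Cdk4 and below them in Cdk6, in both libraries.

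**Figure D2:**
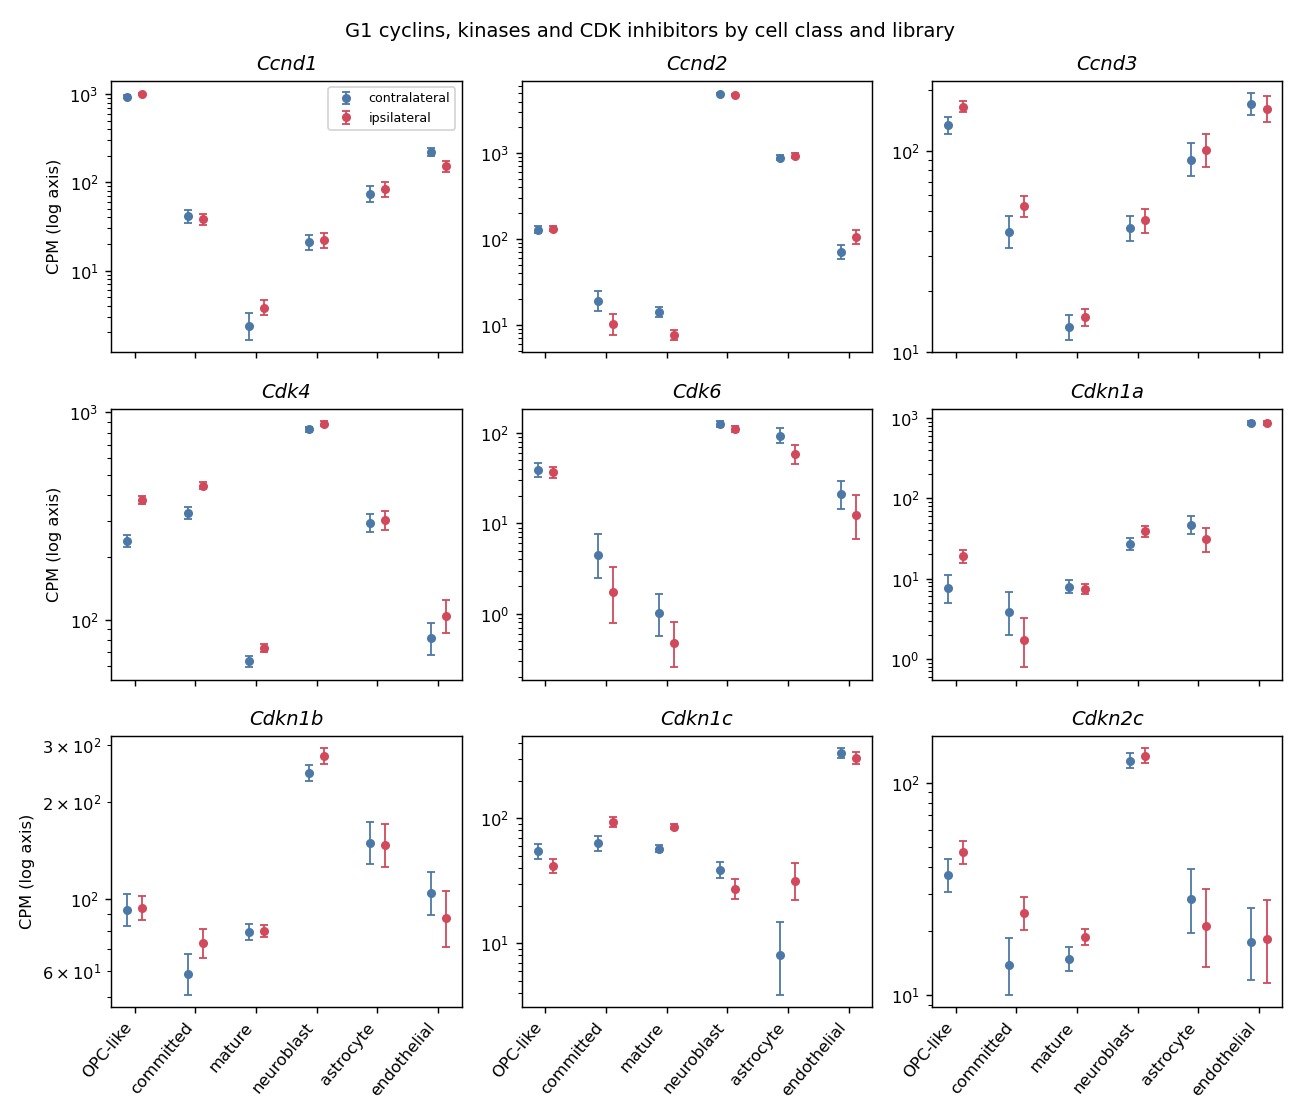
CPM (log axis) of the 9 genes in 6 cell classes, contralateral (blue) and ipsilateral (red), with exact Poisson 95% intervals of the summed UMIs. Ccnd1 peaks in OPC-like cells, Ccnd2, Cdk4, Cdkn1b and Cdkn2c in neuroblast-like cells, and Cdkn1a and Cdkn1c in endothelial-like cells.

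Among the inhibitors, Cdkn1a (chromosome 17, 29090976 to 29100727, plus strand), a target of p53, was highest in endothelial-like cells. They held 875 CPM (829 to 922) contralaterally and 862 CPM (809 to 917) ipsilaterally. Mural-like cells were next at 97.8 and 325 CPM, from 14 and 41 UMIs, of which 1 cell gave 57.1% and 41.5%. Astrocyte-like cells held 46.7 and 30.8 CPM, neuroblast-like cells 27.3 and 38.9, and mature cells 7.95 and 7.50. In astrocyte-like cells 1 contralateral cell gave 51.7% of the Cdkn1a UMIs. Without the cell holding most UMIs on each side, astrocyte-like cells were at 22.8 and 24.1 CPM and neuroblast-like cells at 25.2 and 34.3. In mature contralateral cells 1 cell gave 28.8% of the Cdkn1a UMIs, and the level without it was 5.67 CPM. OPC-like cells held 7.66 CPM contralaterally, from 26 UMIs, and 19.0 CPM ipsilaterally, from 109 UMIs. Committed cells were lowest at 3.86 and 1.72 CPM.

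Cdkn1b (chromosome 6, 134920401 to 134925513, plus strand) was present in every class. Neuroblast-like cells held 247 and 278 CPM, astrocyte-like cells 150 and 148, OPC-like cells 92.8 and 94.1, mature cells 79.4 and 79.9, and committed cells 58.8 and 73.1. Mature cells were above committed cells contralaterally, with intervals of 74.9 to 84.1 and 50.6 to 68.0 CPM, and the intervals of these classes overlapped ipsilaterally. Within the neuroblast class the cluster led by mitosis genes held the most, 317 and 383 CPM.

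Cdkn1c (chromosome 7, 143458339 to 143461050, minus strand) was highest in endothelial-like cells, at 333 and 303 CPM. In the oligodendrocyte lineage it was 54.5 CPM contralaterally and 41.8 ipsilaterally in OPC-like cells, 63.3 and 93.7 in committed cells, and 57.1 and 85.8 in mature cells. The intervals of the 3 classes overlapped from neighbour to neighbour contralaterally, whereas ipsilateral OPC-like cells lay below the other 2 classes.

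Of Cdk4, Cdkn1b and Cdkn1c, the members with over 1000 UMIs in mature cells, Cdkn1c differed most among the mature clusters. The cluster led by Klk6 held 145 CPM (119 to 174) contralaterally and 273 CPM (250 to 298) ipsilaterally. Clusters 2 and 7, with Hapln2 among their leading genes, held 106 and 130 CPM and 75.9 and 81.1 CPM. Clusters 0 and 9, with Opalin among theirs, were lowest, at 17.0 and 44.1 CPM and 22.1 and 42.5 CPM. The Klk6 cluster was thus above all 4 of these in both libraries, and the ipsilateral value was the higher in each of the 5 clusters. Intervals of the sides did not overlap in clusters 0, 2, 9 and 16, and they overlapped in cluster 7. Cluster 13, led by Ifi27l2a, C4b and Serpina3n, held 132 ipsilateral cells with 54.0 CPM, but 5 contralateral cells with 1 Cdkn1c UMI. Cdkn1a, with fewer UMIs, also varied over the 5 clusters. It ran from 1.81 CPM in cluster 9 to 15.6 in cluster 0 contralaterally, where 1 cell gave 50% of the UMIs of cluster 0. Ipsilaterally it ran from 1.60 CPM in cluster 7 to 11.4 in cluster 16.

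**Figure D3:**
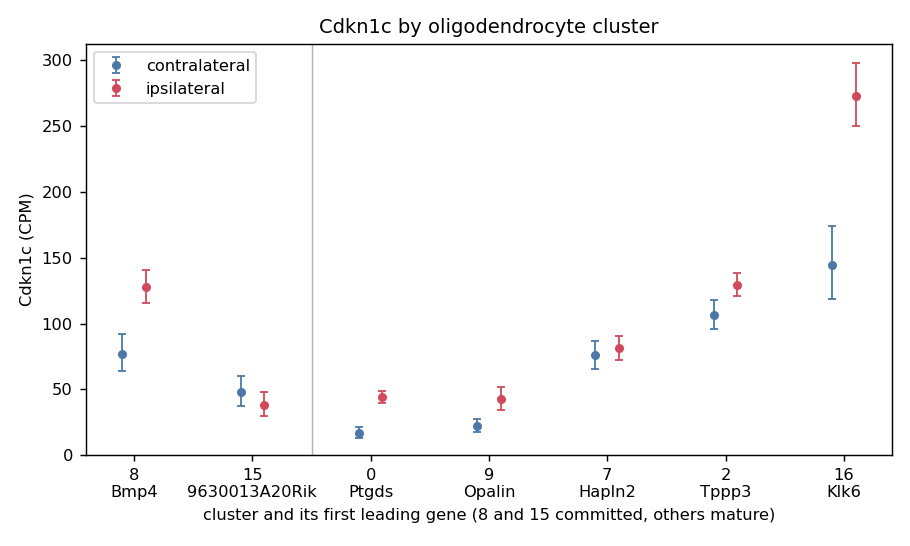
Cdkn1c (CPM, exact Poisson 95% intervals) in 2 committed (8, 15) and 5 mature clusters, each labelled with its first leading gene, contralateral (blue) and ipsilateral (red). The cluster led by Klk6 is highest, at 145 and 273 CPM, and clusters 0 and 9 are the lowest mature clusters.

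Cdkn2c (chromosome 4, 109660876 to 109667189, minus strand) was highest in neuroblast-like cells, at 127 and 134 CPM, then in OPC-like cells at 36.8 and 47.0. Astrocyte-like cells held 28.2 and 21.1 CPM, endothelial-like cells 17.8 and 18.4, committed cells 13.8 and 24.2, and mature cells 14.8 and 18.8. Within the OPC class it differed between clusters more than between sides. The cluster led by Gap43 held 89.2 and 68.1 CPM, and the cluster led by Cdo1 and Pdgfra 12.1 and 10.9 CPM. In the contralateral library 1 cell gave 16.8% of the OPC-like Cdkn2c UMIs.

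Members were next read against the cycle state of single cells. The UMIs of 42 S phase and G2/M genes, none of them a member, were counted in each cell after thinning to 5000 UMIs, and cells were divided into ranges of 0 to 1, 2 to 9 and 10 or more. The ranges cut a continuous count and are not cell types. The highest range held 10.6% of contralateral OPC-like cells (7.39 to 14.7) and 18.2% of ipsilateral ones (14.5 to 22.5). Of the neuroblast-like cells it held 51.4% and 56.4%. No mature cell reached it, 0 of 521 and 0 of 923.

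Of the members, Cdkn2c had the widest span over these ranges in OPC-like cells, taken as a ratio of levels. From the lowest through the middle to the highest range it stood at 14.7, 22.3 and 169 CPM contralaterally, and at 19.3, 16.4 and 141 CPM ipsilaterally. Without the cell holding most of its UMIs, the highest range still stood at 128 CPM in each library. In neuroblast-like cells Cdkn2c went from 18.8 to 171 CPM and from 31.2 to 172 CPM between the lowest and the highest range. An inhibitor of Cdk4 and Cdk6 was thus higher where replication and mitosis genes were higher, in both classes and both libraries.

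Ccnd3 was also higher in the highest range of OPC-like cells, 219 against 119 CPM contralaterally and 233 against 122 CPM ipsilaterally. Ccnd1 differed less, 1319 against 860 CPM and 1155 against 857 CPM, and was high in cells with almost no cycle gene UMIs. Ccnd2 went from 126 to 148 CPM contralaterally and from 88.1 to 244 CPM ipsilaterally, but 1 ipsilateral cell held 125 of the 331 UMIs, and the value without it was 156 CPM. Cdkn1b showed no clear step in OPC-like cells, 83.9 to 113 CPM contralaterally and 94.4 to 94.98 CPM ipsilaterally. Cdkn1c was lower in the highest range, 40.0 against 56.1 CPM and 31.7 against 57.1 CPM, and the intervals overlapped contralaterally.

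In neuroblast-like cells Cdk6 went from 3.76 CPM, which is 1 UMI, to 174 CPM contralaterally and from 13.9 to 147 CPM ipsilaterally. The lowest range held 28 and 25 cells, so its values rest on few UMIs. Ccnd2 stood at 4900, 5583 and 4701 CPM contralaterally from the lowest to the highest range, and at 4281, 5890 and 4531 CPM ipsilaterally, so it was highest in the middle range of both libraries. Cdk4 went from 693 to 891 CPM and from 690 to 952 CPM. Ccnd1 went from 3.76 to 28.8 CPM and from 3.47 to 28.5 CPM, with 1 UMI in the lowest range of each library. Cdkn1a was at 0 UMIs in the lowest contralateral range and at 35.7 CPM in the highest, with 6.94 and 51.0 CPM ipsilaterally. Cdkn1b stayed within 239 to 282 CPM over all ranges of both libraries.

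**Figure D4:**
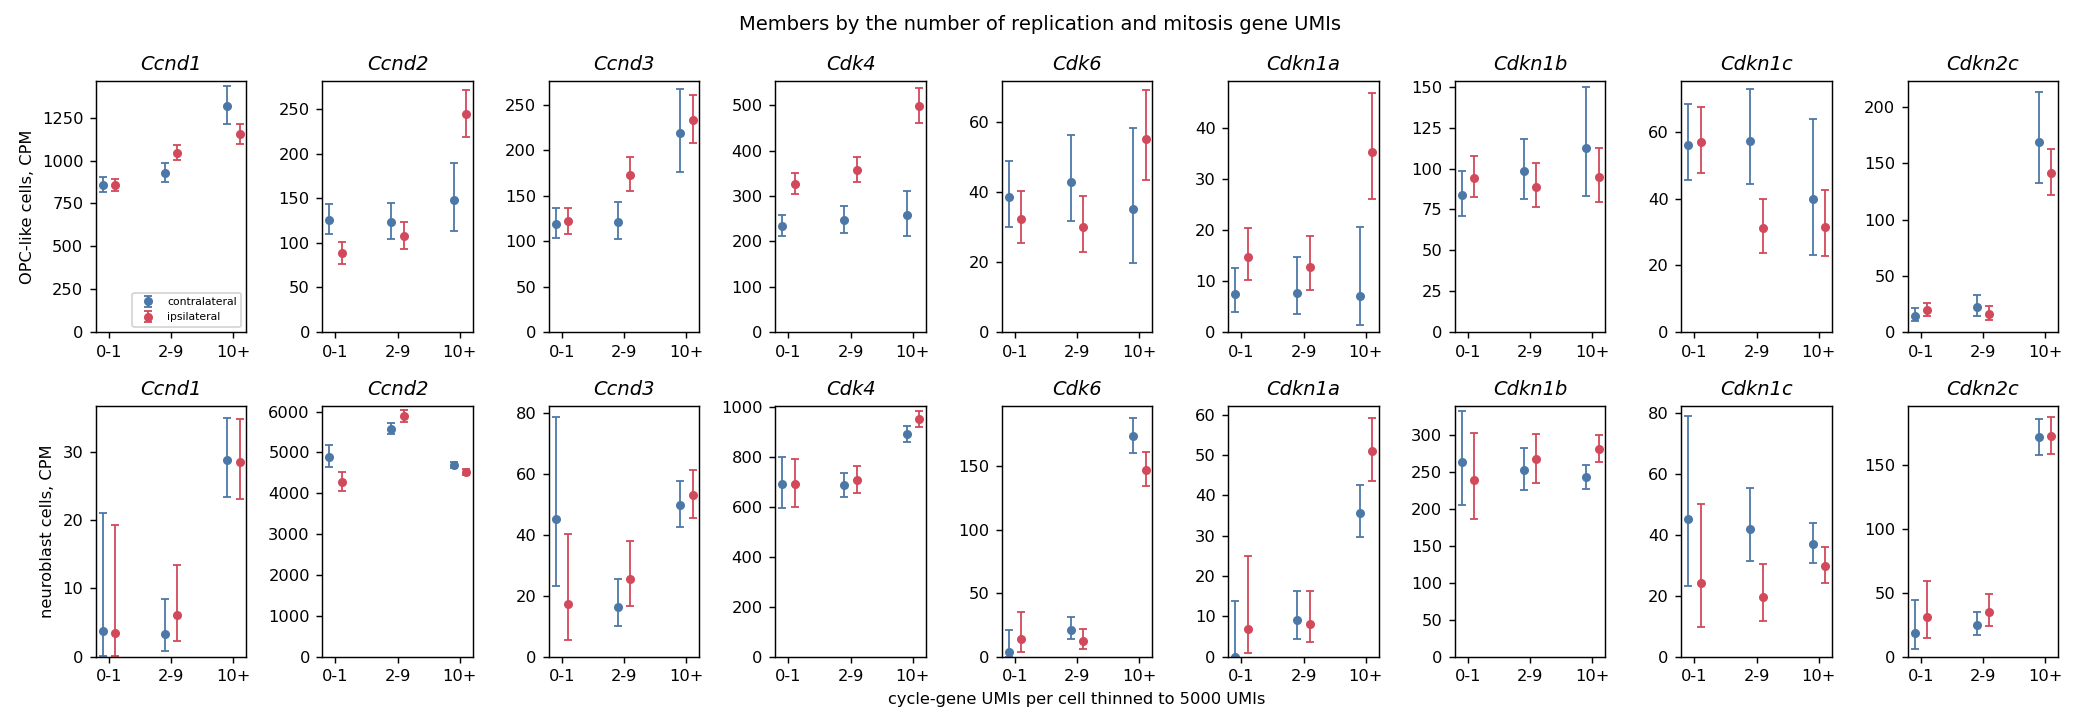
CPM of the 9 genes (exact Poisson 95% intervals) by the number of replication and mitosis gene UMIs per cell thinned to 5000 UMIs, in OPC-like cells (top) and neuroblast-like cells (bottom), contralateral (blue) and ipsilateral (red). Cdkn2c steps up in the highest range of both classes, and Cdk6 in neuroblast-like cells, while Cdkn1b stays level.

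The sides were compared within each class as the log2 ratio of ipsilateral over contralateral CPM after adding 5 CPM to both, which draws ratios of low genes toward 0. A gene was counted as higher or lower if it passed 1.5-fold on that scale with at least 20 summed UMIs. In OPC-like cells 2 of the 9 members were higher and 0 lower, where 1.6% of all genes were higher and 1.69% lower. Their median log2 ratio was 0.08, against -0.05 over all 12172 genes measured.

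Cdk4 was the first of these, at 241 CPM (224 to 258) contralaterally and 378 CPM (362 to 394) ipsilaterally. The log2 ratio was 0.64 (0.53 to 0.76). It was found in 66.4% and 79.9% of thinned OPC-like cells. The ipsilateral value was the higher in the cluster led by Cdo1 (201 and 245 CPM) and in the cluster led by Gap43 (325 and 455 CPM). It was also the higher in the lowest (235 and 328 CPM), middle (247 and 358 CPM) and highest cycle range (259 and 498 CPM). The sides lay farthest apart in the highest range, as Cdk4 rose over the ranges ipsilaterally and little contralaterally. The Gap43 cluster held 89 contralateral and 222 ipsilateral cells, and with the same mix of clusters on both sides the log2 ratio was 0.39, no longer past 1.5-fold. With each library clustered alone it was 0.58, also just below.

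Cdkn1a was the second, at 7.66 CPM (5.00 to 11.2) contralaterally and 19.0 CPM (15.6 to 22.9) ipsilaterally. The log2 ratio was 0.92 (0.50 to 1.33). Its UMIs were in few cells, 3.32% (1.60 to 6.02) contralaterally and 7.55% (5.12 to 10.7) ipsilaterally after thinning, against 2.50% and 3.14% of mature cells. The contralateral share is therefore at the level of a class with little Cdkn1a. Thinned to 2000 UMIs the order turned, with 2.26% contralaterally (7 of 310 cells) and 1.53% ipsilaterally (6 of 393). Without thinning the shares were 7.26% and 14.4%, so no order of the sides is read from these shares. In the highest cycle range the levels were 7.05 CPM from 3 UMIs and 35.3 CPM from 48 UMIs. Endothelial markers, whose cells hold the most Cdkn1a, summed to 25.6 CPM contralaterally and 18.6 CPM ipsilaterally in OPC-like cells. Of the 8 markers 3 had enough UMIs to be measured, all 3 below 0, and the part of endothelial RNA in the Cdkn1a value was not tested. With 20 CPM added in place of 5 the log2 ratio was 0.50, and Cdkn1a no longer passed 1.5-fold.

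The other members of OPC-like cells stayed within 1.5-fold. Ccnd3 had a log2 ratio of 0.30 (0.14 to 0.46), Cdkn2c 0.32 (0.04 to 0.59) and Cdkn1c -0.35 (-0.60 to -0.09). With the same mix of clusters Cdkn2c was at -0.31, and with each library clustered alone Cdkn1c was at 0.18, both in the other direction. Ccnd1 at 0.08, Ccnd2 at 0.04, Cdkn1b at 0.02 and Cdk6 at -0.08 were close to 0. At 2-fold 0 members were higher or lower, where 0.214% of all genes were higher and 0.0986% lower. The S phase genes (20 of 20 above 0, 14 higher) and the G2/M genes (22 of 22 above 0, 10 higher) moved with these values in the same cells, and their part in the Cdk4 and Cdkn1a values was not tested.

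In committed cells 1 member was higher and 1 lower, where 1.56% of all genes were higher and 3.46% lower. Cdkn2c was at 13.8 CPM (10.0 to 18.6) contralaterally and 24.2 CPM (20.2 to 28.8) ipsilaterally, with 0.63 as log2 ratio (0.24 to 1.02). Ccnd2 was at 19.0 and 10.1 CPM from 59 and 53 UMIs, a log2 ratio of -0.67 (-1.06 to -0.26), which turned to 0.78 when called doublets were kept. Over 18 settings Cdkn2c ranged from 0.34 to 0.77 and passed 1.5-fold in 8. It did not with 20 CPM added (0.39), equal weights for cells (0.44), the same mix of clusters (0.52), the stricter cell filter (0.56), no cell filter (0.34) or doublets kept (0.46). Nor did it with an expected doublet rate of 0.02 (0.40), a clustering resolution of 2 (0.42), the members among the variable genes (0.45) or cycle genes left out of them (0.52). Ccnd1, at -0.09, ranged from -0.21 to 1.04 and was above 0 in 9 of them. Cdkn1c had a log2 ratio of 0.53 (0.31 to 0.76), Cdk4 0.43 (0.33 to 0.54) and Ccnd3 0.38 (0.10 to 0.66), none past 1.5-fold. Over the 18 settings Cdkn1c ranged from 0.28 to 1.27 and passed 1.5-fold in 4, and Ccnd3 passed it in 1. Cdkn1c was higher ipsilaterally in cluster 8 (77.1 and 128 CPM) and lower in cluster 15 (47.9 and 38.1 CPM). In cluster 15, 1 contralateral cell gave 45.7% of its UMIs. Cdkn1b was at 0.29, Cdkn1a at -0.40 and Cdk6 at -0.50. Cdkn1a there rested on 12 contralateral and 9 ipsilateral UMIs, and Cdk6 on 14 and 9. At 2-fold 0 members were higher or lower, where 0.288% of all genes were higher and 0.872% lower. Markers of mature cells summed to 34059 CPM in contralateral and 21475 CPM in ipsilateral committed cells, so the class was not alike on both sides, and the part of this in the values was not tested.

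In mature cells 0 members were higher and 1 lower, where 0.494% of all genes were higher and 0.165% lower. Cdkn1c, at 57.1 CPM (53.3 to 61.1) and 85.8 CPM (82.3 to 89.3), had a log2 ratio of 0.55 (0.44 to 0.65) and lay just short of 1.5-fold. Over 20 settings of the analysis, the reported one included, it ranged from 0.46 to 0.63 and was above 0 in all of them. Without cluster 13 it was 0.61, past 1.5-fold. A Cdkn1c UMI was found in 17.3% (14.1 to 20.8) and 23.4% (20.7 to 26.3) of thinned mature cells, against 1.96% and 5.05% of astrocyte-like cells.

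Ccnd2 was the member lower in ipsilateral mature cells, at 14.1 CPM (12.2 to 16.1) on the contralateral and 7.68 CPM (6.67 to 8.79) on the ipsilateral side. The log2 ratio was -0.59 (-0.78 to -0.40). Over all kept cells Ccnd2 stood at 1164 CPM contralaterally and 729 CPM ipsilaterally, and in the barcodes that failed the filters at 128 and 78.6 CPM. The side difference was thus in the same direction in the whole library and in the low-quality barcodes, and the part of free RNA in the value was not tested. Without cluster 13, or without the cell with most Ccnd2 UMIs on each side, the log2 ratio was -0.58, and it was -0.48 with doublets kept and -0.30 with 20 CPM added, none past 1.5-fold. Cdkn2c at 0.26, Ccnd1 at 0.26, Cdk4 at 0.20, Ccnd3 at 0.12, Cdkn1b at 0.01, Cdkn1a at -0.05 and Cdk6 at -0.13 stayed within 1.5-fold. With cluster 18, a mix of precursor and mature markers, counted as mature, an alternative added after the data were seen, Ccnd1 turned to -1.67 and Ccnd2 was at -1.34, both past 1.5-fold. At 2-fold 0 members were higher or lower, where 0.132% of all genes were higher and 0.0247% lower.

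In neuroblast-like cells 0 members were higher and 0 lower, where 0.819% of all genes were higher and 0.863% lower. At 2-fold 0 members passed either, where 0.044% of all genes were higher and 0.0705% lower. The log2 ratios farthest from 0 were those of Cdkn1a, 0.44 (0.16 to 0.73), and Cdkn1c, -0.44 (-0.73 to -0.16). Cdkn1a was higher ipsilaterally in the cluster led by histone and S phase genes (33.5 and 85.3 CPM). It was lower in the cluster led by mitosis genes (39.9 and 13.9 CPM). Intervals of the sides overlapped only in the cluster led by Dlx6os1. A Cdkn1a UMI was found in 12.8% and 9.54% of thinned cells, with overlapping intervals. Over 19 settings its log2 ratio ranged from 0.047 to 0.53. Ccnd2, measured with 46750 UMIs in all, had a log2 ratio of -0.03 (-0.06 to -0.0049). Of the smaller classes, astrocyte-like cells had Cdkn1c higher and Cdk6 lower, where 4.56% of all genes were higher and 4.06% lower. Of the G2/M genes measured in these cells, 9 of 10 were below 0 and 8 lower, with a median log2 ratio of -1.17, and their part in the Cdk6 value was not tested. Cdkn1c there rested on 10 and 36 UMIs, of which 1 cell gave 40.0% and 38.9%, and the levels without those cells were 4.92 and 19.7 CPM. Its log2 ratio was 1.49 (0.75 to 2.18), also past 2-fold, where 0.599% of all genes were higher and 0.528% lower. In endothelial-like cells Cdk6 was lower, from 33 and 14 UMIs, and no member was higher, where 3.45% of all genes were lower and 4.88% higher. At 2-fold 0 members passed there, where 0.886% of all genes were higher and 0.409% lower. The 4 G2/M genes measured in endothelial-like cells were all below 0, 3 of them lower. Cdkn1a had a log2 ratio of -0.02 there (-0.14 to 0.10).

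**Figure D5:**
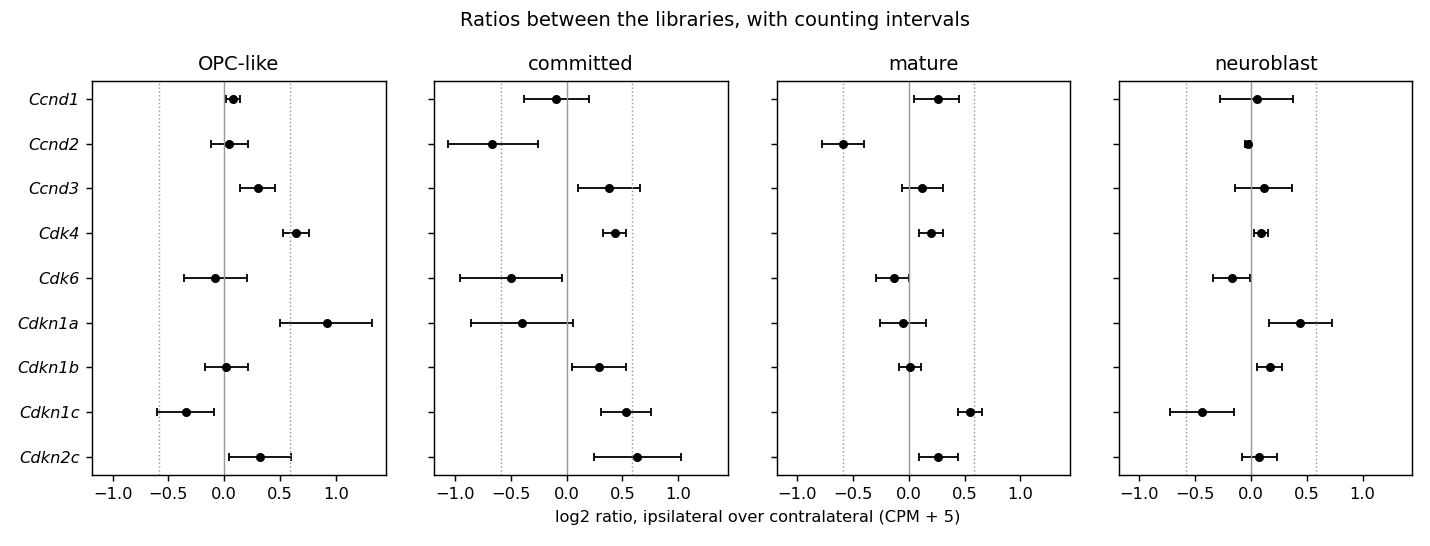
Log2 ratio of ipsilateral over contralateral CPM, with 5 CPM added, for the 9 genes in 4 classes, with intervals for counting error. Dotted lines mark 1.5-fold: Cdk4 and Cdkn1a pass it in OPC-like cells, Cdkn2c and Ccnd2 in committed cells and Ccnd2 in mature cells.

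The rest of the G1 pathway was read from a list of 29 genes: the retinoblastoma family, E2F and DP factors, cyclins E with Cdk2 and its activators, other kinase inhibitors, and upstream transcription factors. In OPC-like cells 28 were measured, of which 4 were higher and 0 lower, beside 1.6% and 1.69% of all genes. Myc, a transcription factor that drives growth, was at 29.4 and 53.7 CPM, a log2 ratio of 0.77 (0.48 to 1.06). Ccne2, the cyclin that acts after the D cyclins, was at 9.72 and 19.2 CPM (0.72), and Cks1b, a subunit of cyclin-kinase complexes, at 21.5 and 35.2 CPM (0.60). E2f7, a repressing E2F factor, had 3 and 35 UMIs, a log2 ratio of 0.92 (0.46 to 1.25). In committed, mature and neuroblast-like cells 0 genes of the list were higher or lower, where 0.165% to 3.46% of all genes were in either direction. Myc had a log2 ratio of 0.40 in committed and 0.44 in mature cells.

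Of 18 p53 targets, 14 were measured in OPC-like cells, 5 above 0 and 9 below, and 0 were higher or lower past 1.5-fold, beside 1.6% and 1.69% of all genes. At those shares a count of 0 is no result about the list. Trp53inp1 was at 23.9 and 15.5 CPM, Plk2 at 109.8 and 80.1 CPM and Btg2 at 184 and 232 CPM. The median log2 ratio of the list was -0.13, against -0.05 over all genes, and the part of p53 in the Cdkn1a value was not tested. In committed cells Bbc3, a pro-apoptotic gene, was higher (10.3 and 22.1 CPM), and Btg2 (53.7 and 30.1 CPM) and Phlda3 (87.5 and 53.2 CPM) were lower, where 1.56% of all genes were higher and 3.46% lower.

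Profiles over 6 classes in 2 libraries, 12 points in all, were compared between each member and 12700 genes by Pearson's r of log2(CPM + 5). The points share libraries and differ mostly between classes, so r is a description. Cdkn2c was most like Nusap1 (0.99), Ccnd1 like Sdc3 (0.98) and Klhl3 (0.97), and Ccnd2 like Fbln1 (0.99) and Nfib (0.98). Cdk4 was most like Erh (0.99) and Prmt1 (0.98), Cdk6 like Rprd1b (0.99), and Ccnd3 like Ltbr (0.97) and Tnfrsf1a (0.97). Cdkn1a was most like Msn (0.99) and Arhgap18 (0.99), Cdkn1b like Epha3 (0.98) and Hist1h4i (0.98), and Cdkn1c like Mindy1 (0.98) and Nbdy (0.94). Exons of Ccnd1, Ccnd2, Ccnd3, Cdk4, Cdk6, Cdkn1a and Cdkn1c overlap a gene on the opposite strand, Tspan31 for Cdk4, and the strand setting of the counting is not given in the sources used here. Reads of such pairs may therefore not be told apart.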

How the data were processed

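Single-cell RNA sequencing libraries of 1 contralateral and 1 ipsilateral sample were used. The authors deposited UMI counts for each gene in each barcode. Cell Ranger 3.1.0 and the build mm10 are named in the submitters' processing notes; which annotation they used is not given in the sources used here. Members, gene lists and alternatives were chosen with earlier results of these data known.

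Cells were kept with at least 500 genes, at most 15% mitochondrial UMIs and no Scrublet call at an expected rate of 0.05, in scanpy 1.11.5. Scrublet called 14 contralateral (0.73%) and 101 ipsilateral barcodes (4.03%). Cells of both libraries were scaled to 10000 counts, log-transformed and clustered together (2000 variable genes without the 9 members, 30 components, 15 neighbours, Leiden resolution 1). Clusters took the class whose markers scored highest. These thresholds were chosen after seeing the data: a score of at least 0.3, at least 3 markers reaching 0.3 of their highest level (markers under 50 CPM in every cluster not counted), and no second class at 0.3 and at 0.6 of the best. A cluster led by another class's markers, or with none of its own leading and a second class at 0.25, stayed unnamed, which left out 332 and 322 cells. UMIs were summed per library and class. Only the ratio step was tested on simulated sums, drawn with Poisson error. Intervals are exact Poisson for sums and Clopper-Pearson for shares. Ratio intervals combine the Poisson intervals of both sides.

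All 9 members are described in the oligodendrocyte and neuroblast-like classes, and in part in the smaller ones. Of the other lists, up to 4 genes per class with the largest absolute log2 ratio and at least 20 UMIs were eligible to be named, and for each member the 2 genes with the highest r. For Cdk6 and Cdkn2c 1 of these is not reported here. Gene positions come from GENCODE M21 on GRCm38, and promoter windows from RefSeq.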

Additional observations from a re-analysis of the deposited data

How the results depend on the processing

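No paired analysis was possible because each side is 1 library, so no replicate could be left out either. In neuroblast-like cells the median ratio and both counts of members stayed close to the reported values under every setting run. In OPC-like cells, 1 member was higher in place of 2 with 20 CPM added, with the same mix of clusters or with each library clustered alone, and 0 at 2-fold; the median was 0.15 with cells weighted equally and 0.18 with each library clustered alone. In committed cells, the number of higher members was 0 with 20 CPM added, equal weights, the same mix, the stricter cell filter, cycle genes out of the variable genes or 2-fold, 2 without the largest cell, and 4 with each library alone, where the median was 0.59. The number of lower members there was 3 with 1 CPM added, and 0 with 20 CPM added, no cell filter, the stricter filter, doublets kept, a Scrublet rate of 0.02, resolution 2, members among the variable genes, cycle genes out of them, or 2-fold. Ccnd2 in committed cells turned to 0.71 without a cell filter and 0.78 with doublets kept. In mature cells, 0 members were lower with 20 CPM added, without the largest cell, with doublets kept, without cluster 13 or at 2-fold, and 2 (Ccnd1 and Ccnd2) with the mixed cluster 18 counted in the class, where the median was -0.13. There 1 member was higher with equal weights, the stricter filter, each library alone or without cluster 13. Leaving out cluster 13, adding cluster 18 and counting cluster 10 as neuroblast-like were chosen after the data were seen. Causes were not tested. Depth limits Cdkn1a and Cdk6 in committed cells, with 21 and 23 UMIs in all.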

Other observations

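Cells in 2 unnamed clusters also carried these genes. Cluster 10, with 104 contralateral and 87 ipsilateral cells, was led by the replication genes Ung, Mcm3 and Hells and also by Cdk6 and E2f1. It held Ccnd2 at 5806 and 5012 CPM, Cdk4 at 1021 and 1101 CPM and Cdk6 at 316 and 277 CPM, above the neuroblast-like class in Cdk4 and Cdk6 in both libraries. Its Cdkn2c stood at 57.9 and 59.6 CPM, below the 173 and 159 CPM of cluster 12, a neuroblast-like cluster led by histone and S phase genes. Cluster 12 held Cdk4 at 1033 and 1117 CPM, so the Cdk4 level was not particular to cluster 10. Its Cdk6 was lower, at 224 and 206 CPM. Cdkn1b was 148 and 162 CPM in cluster 10. Ccnd1 was 128 and 155 CPM there, above the 21.1 and 22.0 CPM of the neuroblast-like class. Cluster 6, led by Prokr2, Pbx3 and Meg3, genes of differentiating neurons among them, held 137 and 155 cells. It kept Ccnd2 at 1526 and 1718 CPM and Cdkn1b at 210 and 231 CPM, with Cdk6 at 3.1 and 1.6 CPM.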
